A study of Mus musculus with 24 samples.

Results

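Splicing factors of the SR, hnRNP, SF3, snRNP and U2AF families were followed at the mRNA level in brite adipocytes after knockdown of the long noncoding RNA Ctcflos. The members were the genes whose symbol begins with Hnrnp, Snrp or U2af, is Srsf followed by digits, or begins with Sf3a or Sf3b followed by a digit, and that had a RefSeq mRNA entry. Where a gene had several such entries, the entry with the highest mean level over the 24 libraries stood for it. This gave 54 genes from 89 entries, of 20461 gene symbols with a RefSeq mRNA entry: 11 SR, 20 hnRNP, 8 SF3, 12 snRNP and 3 U2AF genes.

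All cells were primary preadipocytes from the stromal-vascular fraction of inguinal white fat of 129SvEv mice, which were induced and then differentiated with rosiglitazone, an agonist of the nuclear receptor PPARγ that promotes browning. The knockdown (KD) cells received an LNA gapmer, a chimeric antisense oligonucleotide that directs cleavage of its RNA target, against Ctcflos at 50 nM, and the control (NC) cells a non-targeting gapmer at the same dose. RNA was collected 24 h or 72 h later, with 6 libraries in each of the 4 groups. The study calls the libraries of a group biological replicates, without saying whether these were separate mice or separate cultures, and the p-values below measure the spread between them.

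Pre-mRNA splicing is carried out by the spliceosome, which is assembled from small nuclear ribonucleoproteins (snRNPs) on each intron. SR proteins bind exons and mostly favour the use of nearby splice sites, hnRNP proteins bind nascent RNA and often oppose them, U2AF recognises the end of the intron, and the SF3a and SF3b complexes hold the U2 snRNP on the branch point. Many SR and hnRNP genes control their own mRNA through alternative exons that lead to decay.

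The libraries held 1391831 to 5926374 mapped reads (median 4009996.5), recovered from the steps of the deposited values. The highest total was that of NC 72 h library 6, where only 14.9% of read numbers from 1 to 20 were odd. In the other libraries 54.0 to 55.7% were odd. The depth of NC 72 h library 6 is therefore uncertain, and its reads were halved in the fits with voom. The KD 24 h library 6 was the shallowest. NC 72 h libraries 2 and 3 differed by less than the sampling noise, and their mean stood as 1 sample in NC 72 h (n = 5). By their deviations from the group means the libraries fell into clusters of 16 and 8, the smaller with 2 libraries of each group. The targeted RNA was low in all libraries: Ctcflos (RefSeq NR_040321) was at 0.189 ± 0.244 RPKM (a read count divided by transcript length and library depth; mean ± SD, n = 6) in KD and 0.741 ± 0.515 (n = 6) in NC at 24 h, and at 0.231 ± 0.220 (n = 6) and 1.23 ± 0.408 (n = 5) at 72 h. The groups overlapped at 24 h (exact permutation test, two-sided, p = 0.0455) and did not at 72 h (p = 0.00433). Adipocyte identity was visible in all libraries, with means of 1826 RPKM for Adipoq and 36825 for Fabp4. The endothelial markers Pecam1 and Cdh5 had means of 0.328 and 0.246 and the leukocyte marker Ptprc of 0.0417. Other markers of non-adipocytes were higher. Over all libraries, macrophage markers summed to 2.74 to 28.3 RPKM, mural markers to 162 to 1057, and preadipocyte or fibroblast markers to 446 to 1199. The other marker lists are given at the end.

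Of the 54 members, 52 passed the filter on low values at both times; Srsf12 and Hnrnpul1 did not. Members were tested with limma across all table entries that passed, on the log2 of TMM-scaled RPKM plus 0.1, and a member was called at an adjusted p below 0.05 (Benjamini-Hochberg, two-sided). At 24 h, 19 of 52 members were called (36.5%), all of them higher in KD, against 22.7% of all entries called and 11.1% called higher. At 72 h, 11 of 52 were called (21.2%), 10 higher and 1 lower, against 22.3% of all entries called and 10.3% called higher. The share of members called at 72 h was thus near that of the whole table, and the share called higher, 19.2%, was not. Of all entries 12% were called lower at 72 h.

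The median log2 fold change over the 52 members was 0.44 at 24 h and 0.26 at 72 h, beside -0.01 and 0.01 over all entries tested. It was above 0 in every KD library: each KD library's median over members, relative to the NC mean, ran from 0.25 to 0.68 at 24 h and from 0.15 to 0.31 at 72 h. The NC libraries ran from -0.10 to 0.09 at 24 h and from -0.08 to 0.11 at 72 h. The fold change was above 0 for 44 of 52 members at 24 h and for 40 of 52 at 72 h. KD and NC samples did not overlap, with KD higher, for 13 members at 24 h (25%; 4.73% of all entries) and for 6 at 72 h (11.5%; 6.08% of all entries).

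**Figure D1:**
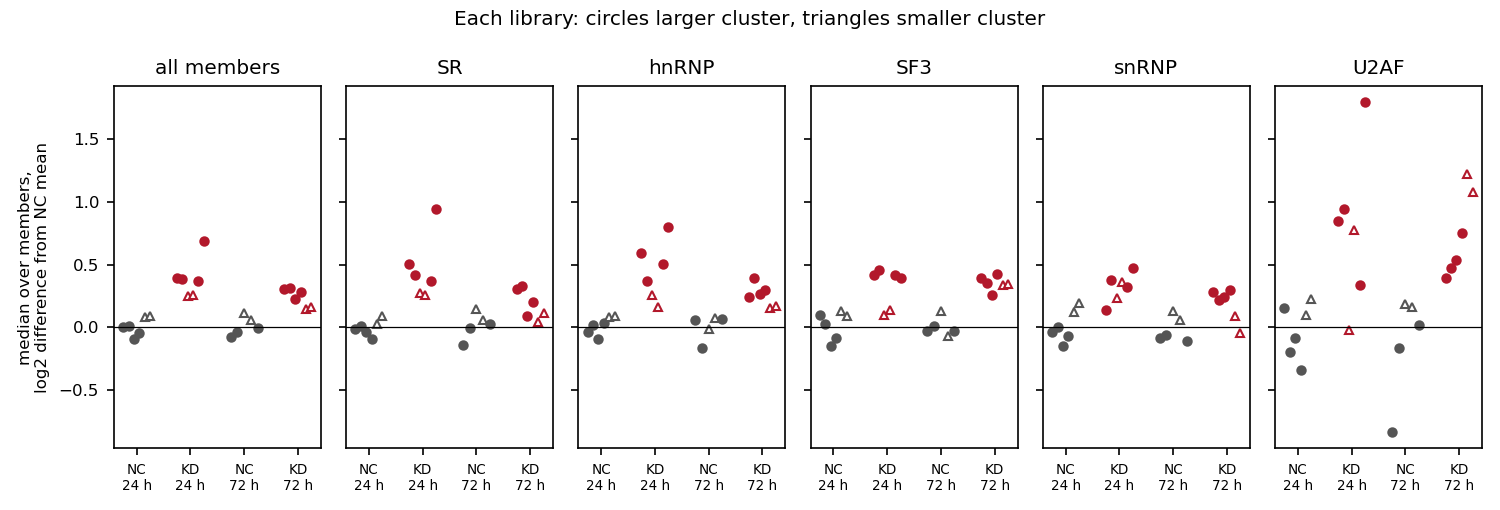
Median over the members of each family of the log2 difference between a library and the mean of the NC libraries of the same time. Each point is 1 library (red, KD; grey, NC; circles, larger cluster of libraries; open triangles, smaller cluster). Over all members the KD libraries sit between 0.25 and 0.68 at 24 h and between 0.15 and 0.31 at 72 h, above every NC library.

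Single libraries and the clusters moved these counts. KD 24 h library 6 held the highest value of its group for 28 of the 52 members. Without it 20 members were called at 24 h, 19 of them higher, and the median log2 fold change was 0.34. Of all entries 25.1% were called without it. Within the larger cluster alone 21 members were called at 24 h and 18 at 72 h (17 higher, 1 lower), with medians of 0.50 and 0.33. There 25.1% and 24.6% of all entries were called. Within the smaller cluster alone, with 2 libraries a group, 2 members were called at 24 h (Hnrnpa2b1 and Srsf7) and 6 at 72 h (2 higher, 4 lower), with medians of 0.14 and 0.09. Calls over all entries were also few there, 2.95% at 24 h and 10.3% at 72 h. The count also fell to 12 without NC 24 h library 1 (17.6% of all entries called) and to 7 without NC 72 h library 1 (18.3%). On the deposited RPKM without scaling, 30 members were called at 72 h, all higher. With it 29.9% of all entries were called, and the median of all entries was itself shifted to 0.25.

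The SR proteins were called higher at 24 h and not at 72 h. Of 10 members tested, 4 rose at 24 h (Srsf1, Srsf6, Srsf11 and Srsf2), none fell, and the fold change was above 0 in all 10, with a median of 0.52 on the log2 scale. The share called higher was 40% at 24 h and 0% at 72 h, against 11.1% and 10.3% of all entries. Srsf7 narrowly missed the call at 24 h (0.51 ± 0.179, SE, adjusted p = 0.0518). It was called without KD 24 h library 6 (0.69, adjusted p = 0.000302) and in the smaller cluster (0.47, adjusted p = 0.0431), but not in the larger. At 72 h no SR member was called (lowest adjusted p = 0.0977, 2 with an unadjusted p below 0.05; with voom on the recovered reads also none), and the median was 0.23.

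Srsf1, which encodes the founding SR protein SF2/ASF, lies on chromosome 11 at 88046499 to 88053757 (GRCm38.p6). At 24 h its scaled RPKM was between 6.97 and 19.2 in KD (median 8.66) and between 4.70 and 6.44 in NC (median 6.00). The groups did not overlap, and the highest KD value was that of library 6. Its log2 fold change was 0.76 ± 0.228 (SE, adjusted p = 0.0273). At 72 h KD spanned 3.79 to 6.65 (median 6.20), and the NC samples were at 3.99, 4.97, 5.34, 6.22 and 6.38, so that the KD range covered that of NC.

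Srsf6, another exon-binding SR protein, was between 13.6 and 37.8 in KD (median 18.8) and between 11.0 and 13.2 in NC (median 12.7) at 24 h. The lowest KD sample was just above the highest NC sample, and the log2 fold change was 0.69 ± 0.212 (SE, adjusted p = 0.0301). At 72 h KD was between 14.1 and 18.3 and NC at 10.5, 11.0, 12.8, 13.4 and 14.4, with a log2 fold change of 0.31 ± 0.127 (adjusted p = 0.0977). Leaving out 1 library ended the call at 24 h for 8 of 12 libraries, those being KD 1 and 2 and all 6 NC libraries.

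Srsf11, a less typical SR protein also known as p54, was between 19.9 and 32.9 in KD (median 22.2) and between 14.7 and 18.1 in NC (median 15.7) at 24 h. Every KD sample exceeded every NC sample. Its log2 fold change, 0.54 ± 0.135 (SE, adjusted p = 0.0117), was called without each library in turn. At 72 h KD was between 18.7 and 23.7 and NC at 15.3, 16.0, 17.5, 18.2 and 22.4, with a log2 fold change of 0.20 ± 0.122 (adjusted p = 0.274).

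Srsf2, or SC35, whose protein marks nuclear speckles, was between 12.8 and 27.4 in KD (median 17.0) and between 9.72 and 14.4 in NC (median 12.2) at 24 h. The groups overlapped, and the log2 fold change of 0.53 ± 0.182 (SE) passed the test narrowly (adjusted p = 0.0478); without KD 24 h library 6 it was 0.40 with an adjusted p of 0.0677, and the call held only when KD library 3 or 4 was the library left out. At 72 h its log2 fold change was 0.27 ± 0.197 (adjusted p = 0.349). On the opposite strand, exons of Mettl23 cover 460 of the last 500 exon bases of Srsf2. Whether the counting used the strand is not given in the sources used here, so reads of the 2 genes cannot be told apart. Mettl23 had a log2 fold change of -0.36 at 24 h (adjusted p = 0.0628) and fell at 72 h by 0.64 (adjusted p = 0.00405).

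**Figure D2:**
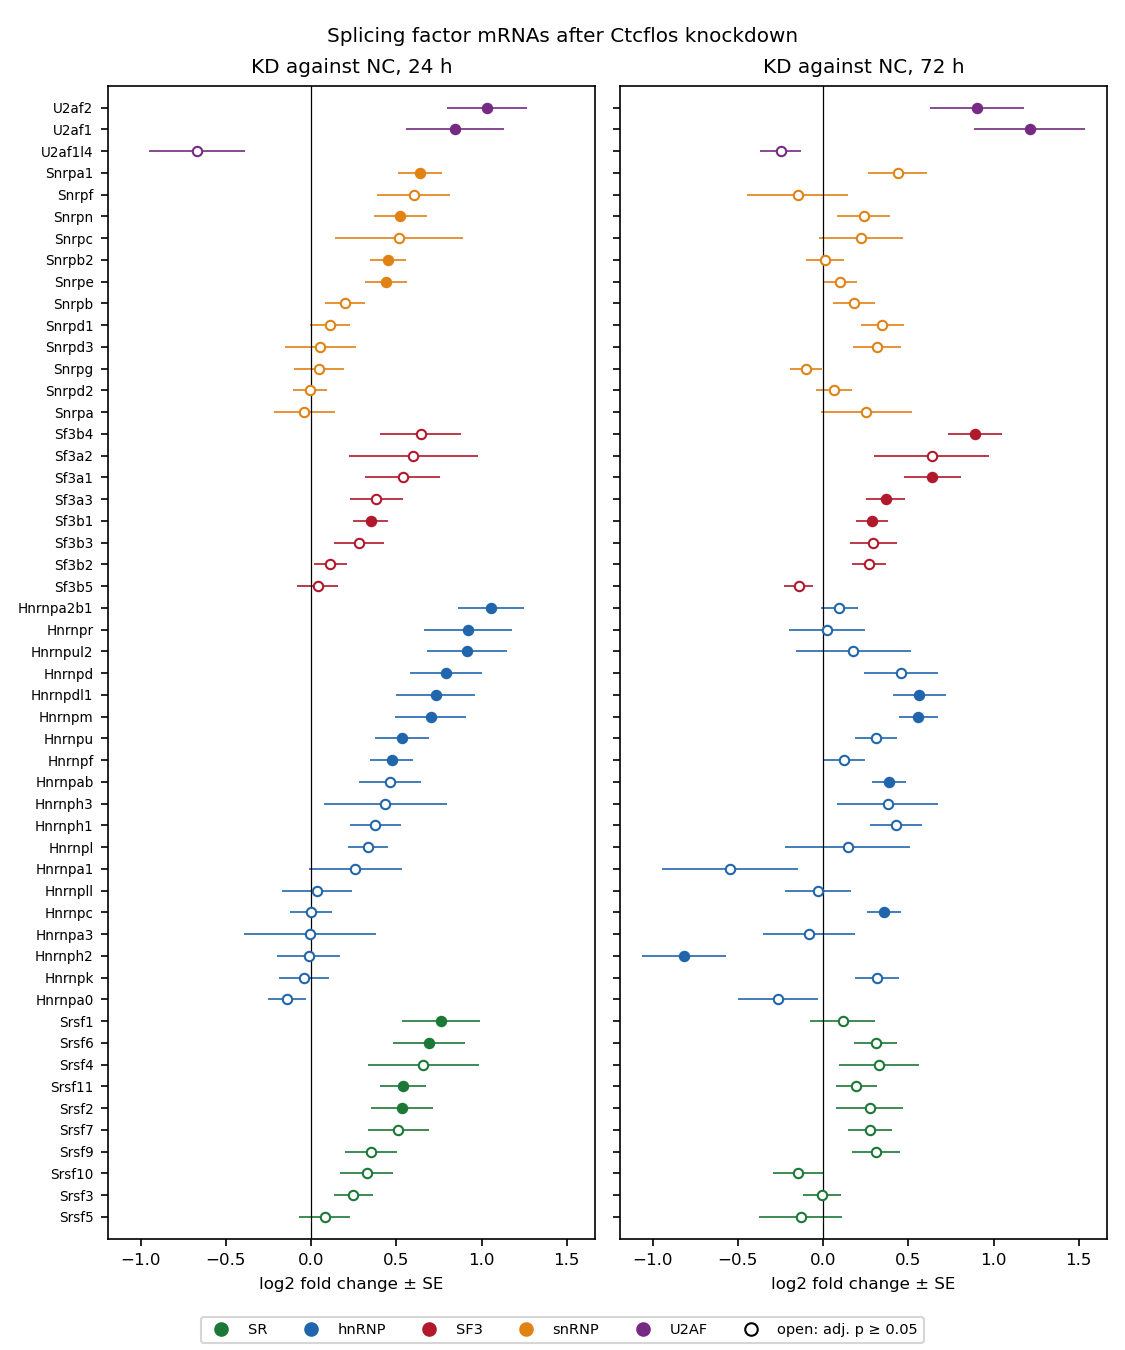
Log2 fold change of KD against NC ± SE for the 52 members tested, at 24 h (left) and 72 h (right), coloured by family. Filled points passed an adjusted p of 0.05. All 19 filled points at 24 h lie to the right of 0; at 72 h 10 do, and Hnrnph2 lies to the left.

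Of 19 hnRNP members tested, 8 rose at 24 h (42.1%, against 11.1% of all entries) and none fell, and their median was 0.44 on the log2 scale. At 72 h 4 rose (Hnrnpab, Hnrnpc, Hnrnpdl1 and Hnrnpm), Hnrnph2 fell, and the median was 0.18. The share that rose was 21.1%, against 10.3% of all entries, and 12% of all entries were called lower. Hnrnpdl1 and Hnrnpm rose at both times. The members called but not described further were Hnrnpd, Hnrnpu and Hnrnpf at 24 h (log2 fold changes of 0.79, 0.53 and 0.47) and Hnrnpc at 72 h (0.36).

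Hnrnpa2b1, an abundant A/B-type hnRNP, was between 155 and 369.8 scaled RPKM in KD (median 167) and between 79.0 and 111 in NC (median 93.7) at 24 h. Each KD sample was above each NC sample, and library 6 stood far above the others. Its log2 fold change was 1.06 ± 0.191 (SE, adjusted p = 0.0022), and 0.87 without library 6 (adjusted p = 0.000261). It was called under each of the 23 other settings and left-out libraries tried, within the smaller cluster too. At 72 h the KD samples lay between 91.8 and 117 (median 100.1) and the NC samples at 75.3, 96.8, 100.2, 103 and 103. The groups overlapped almost fully there, with a log2 fold change of 0.10 ± 0.108 (adjusted p = 0.564). The change in effect between the times was -0.95 ± 0.233 and did not pass the interaction test (adjusted p = 0.0962). Without KD 24 h library 6 it was -0.77 and Hnrnpa2b1 was the 1 member whose interaction was called (adjusted p = 0.0397).

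Hnrnpr, a relative of hnRNP Q, was between 6.32 and 21.2 in KD (median 8.32) and between 3.83 and 6.01 in NC (median 5.06) at 24 h. The groups did not overlap, and the log2 fold change was 0.92 ± 0.260 (SE, adjusted p = 0.0207). Library 6 was again apart, and without it the log2 fold change was 0.68 (adjusted p = 0.0149). At 72 h the log2 fold change was 0.02 ± 0.222 (adjusted p = 0.953).

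Hnrnpul2, a relative of the nuclear scaffold protein hnRNP U, was a low gene: between 0.743 and 1.25 in KD (median 1.07) and between 0.351 and 0.581 in NC (median 0.516) at 24 h. The groups were apart, with a log2 fold change of 0.92 ± 0.234 (SE, adjusted p = 0.013). At 72 h the KD samples spread from 0.505 to 1.57 and the log2 fold change was 0.18 ± 0.338 (adjusted p = 0.75).

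Hnrnpm, a regulator of alternative exons, was between 15.7 and 39.5 in KD (median 20.8) and between 11.5 and 15.7 in NC (median 14.4) at 24 h, with a log2 fold change of 0.70 ± 0.208 (SE, adjusted p = 0.0259). At 72 h the 6 KD samples lay close together, from 16.1 to 17.7, above the NC samples at 10.1, 10.4, 10.7, 12.7 and 13.2. The groups did not overlap at either time, but at 24 h the lowest KD sample (15.70) was only just above the highest NC sample (15.66). The log2 fold change at 72 h was 0.56 ± 0.115 (adjusted p = 0.00355). Within the smaller cluster the log2 fold change at 24 h was 0.13 (adjusted p = 0.715). March2, on the same strand and at a mean of 29.1 RPKM, shares 1169 exon bases with Hnrnpm, none of them among its last 500. Its log2 fold changes were 0.27 at 24 h (adjusted p = 0.198) and 0.002 at 72 h (adjusted p = 0.994), and its part in the Hnrnpm values was not tested.

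Hnrnpdl1, the table's symbol for the gene now called Hnrnpdl, encodes a relative of the AU-rich element binding protein hnRNP D. At 24 h it was between 14.1 and 33.2 in KD (median 14.8) and between 7.56 and 13.7 in NC (median 12.3), without overlap. On the log2 scale the difference was 0.73 ± 0.233 (SE, adjusted p = 0.0356). At 72 h KD was between 14.0 and 20.1 (median 17.5) and NC at 9.30, 9.51, 11.7, 13.7 and 14.4, with a log2 fold change of 0.56 ± 0.154 (adjusted p = 0.0174), although the lowest KD sample was below the highest NC sample.

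Hnrnpab, an A/B-type hnRNP, was called at 72 h, when KD was between 46.0 and 63.1 (median 55.4) and NC at 38.3, 40.2, 40.5, 44.2 and 44.6. All KD samples were above all NC samples, and the log2 fold change was 0.39 ± 0.101 (SE, adjusted p = 0.0139). At 24 h it was 0.46 ± 0.182 (adjusted p = 0.0774). Exons of Phykpl on the opposite strand cover 450 of its last 500 exon bases, and Phykpl fell by 1.57 at 24 h (adjusted p = 0.00316) and by 1.18 at 72 h (adjusted p = 0.000753) on the log2 scale.

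Hnrnph2, an X-linked gene whose protein binds G-rich RNA, was the 1 member called lower. At 72 h it was between 2.71 and 6.86 in KD (median 4.65) and at 5.33, 6.58, 8.50, 9.99 and 10.03 in NC. 5 of the 6 KD samples were below every NC sample. Its log2 fold change was -0.82 ± 0.246 (SE, adjusted p = 0.029), and the call was lost when KD library 2, 5 or 6 or NC library 1, 5 or 6 was left out, and also on the deposited scale (-0.57, adjusted p = 0.0743), with no filter (-0.80, adjusted p = 0.0581), with the replicate number as a block (-0.86, adjusted p = 0.0599) and in the smaller cluster (-1.08, adjusted p = 0.081). At 24 h the values were 5.03 to 11.2 in KD and 6.95 to 10.1 in NC, with a log2 fold change of -0.01 ± 0.185 (adjusted p = 0.965).

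**Figure D3:**
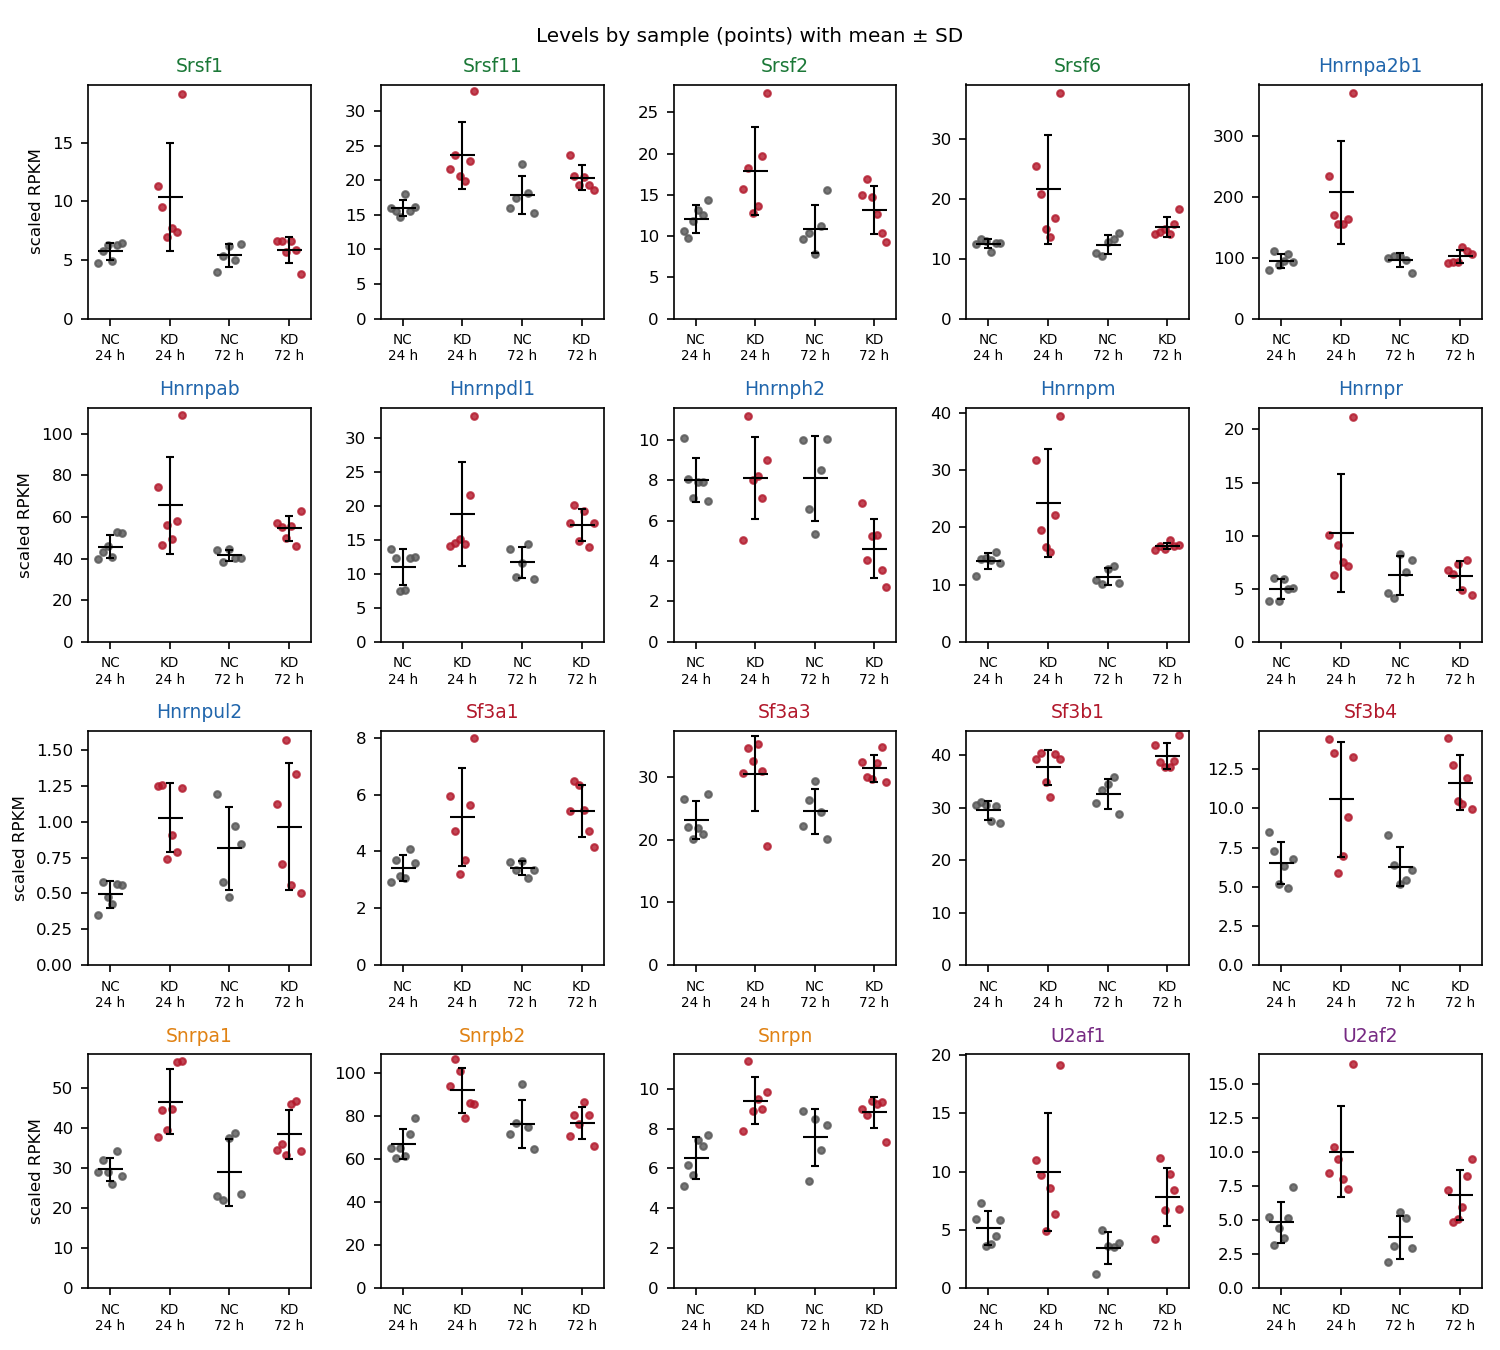
Scaled RPKM of the 20 members described with values in every sample (points; grey, NC; red, KD; n = 6 a group, 5 for NC 72 h), with mean ± SD in black; scaling was done at each time apart. In KD at 24 h, library 6 is the highest for Hnrnpa2b1 at 369.8 and the lowest for Sf3a3 at 19.0.

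The SF3 complex showed the opposite order in time by its counts of calls. Of 8 members tested, Sf3b1 was called at 24 h, and Sf3a1, Sf3a3, Sf3b1 and Sf3b4 at 72 h, all higher. The share at 24 h, 12.5%, was near the 11.1% of all entries called higher. At 72 h it was 50%, against 10.3% of all entries. The sizes differed less than the counts: the median log2 fold change was 0.37 at 24 h and 0.33 at 72 h, and the interaction was called for none of the 8 (lowest adjusted p = 0.628, none with an unadjusted p below 0.05).

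Sf3b1, the largest SF3b subunit, which contacts the branch point, had closely spaced values. At 24 h KD was between 32.1 and 40.4 (median 39.3) and NC between 27.1 and 31.2 (median 30.4); at 72 h KD was between 37.8 and 43.8 (median 38.8) and NC at 28.8, 30.9, 33.4, 34.5 and 35.9. KD lay above NC without overlap at both times. The log2 fold changes were small, 0.35 ± 0.103 (SE, adjusted p = 0.0257) and 0.29 ± 0.0955 (adjusted p = 0.0449), and leaving out a library ended the call for 5 of 12 libraries at 24 h and for 9 of 12 at 72 h. The shared sample of NC 72 h libraries 2 and 3 was not among those left out.

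Sf3b4, an SF3b subunit that binds RNA near the branch point, rose at 72 h. KD was between 9.99 and 14.5 (median 11.2) and NC at 5.17, 5.45, 6.05, 6.42 and 8.31, without overlap. Its log2 fold change was 0.89 ± 0.159 (SE, adjusted p = 0.00139), the largest of the family, and it was called under all 24 other settings and left-out libraries. At 24 h it was 0.64 ± 0.238 (adjusted p = 0.0643), with the KD samples of the smaller cluster at 5.90 and 6.97 and the other 4 at 9.45 or higher.

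Sf3a1, a subunit of SF3a, was between 4.16 and 6.48 in KD (median 5.44) and at 3.06, 3.34, 3.35, 3.64 and 3.68 in NC at 72 h. The groups did not overlap, with a log2 fold change of 0.64 ± 0.166 (SE, adjusted p = 0.0137). At 24 h it was 0.54 ± 0.220 (adjusted p = 0.0899).

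Sf3a3, a further SF3a subunit, was between 29.2 and 34.8 in KD (median 31.2) and at 20.1, 22.2, 24.5, 26.3 and 29.4 in NC at 72 h, so that the ranges just touched. The log2 fold change was 0.37 ± 0.114 (SE, adjusted p = 0.0331). At 24 h it was 0.38 ± 0.156 (adjusted p = 0.0893), where 5 KD samples were at 30.7 or higher and library 6 at 19.0; without library 6 it was 0.51 (adjusted p = 0.00487).

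The snRNP proteins were called at 24 h in 4 of 12 members (Snrpa1, Snrpn, Snrpb2 and Snrpe), all higher, with a median log2 fold change of 0.32, and in none at 72 h (lowest adjusted p = 0.0625, 3 with an unadjusted p below 0.05; none with voom), with a median of 0.20. Of this family 33.3% were called higher at 24 h and 0% at 72 h, against 11.1% and 10.3% of all entries. The members called were not those of the Sm ring alone: Snrpa1 and Snrpb2 encode the U2-specific proteins A′ and B″, Snrpn a B-like Sm protein expressed mainly in brain, and Snrpe a core Sm protein. The other Sm core genes were not called at 24 h and varied in size, with log2 fold changes of 0.60 for Snrpf (adjusted p = 0.0563), 0.20 for Snrpb, 0.11 for Snrpd1, 0.05 for Snrpd3 and Snrpg and -0.01 for Snrpd2. The last 500 exon bases of Snrpf are covered by Ccdc38 on the opposite strand, from which it cannot be told apart.

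Snrpa1 was between 37.7 and 56.7 scaled RPKM in KD (median 44.7) and between 26.1 and 34.3 in NC (median 29.0) at 24 h. The groups were apart, with a log2 fold change of 0.64 ± 0.129 (SE, adjusted p = 0.00394). At 72 h the NC samples split, at 22.0, 23.2 and 23.6 in the larger cluster and at 37.5 and 38.8 in the smaller, and KD was between 33.3 and 46.7. The log2 fold change there was 0.44 ± 0.173 (adjusted p = 0.0847).

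Snrpb2 was between 78.9 and 106 in KD (median 89.8) and between 60.4 and 78.8 in NC (median 65.1) at 24 h, with a log2 fold change of 0.45 ± 0.107 (SE, adjusted p = 0.00886). At 72 h KD and NC had nearly equal means, 76.6 ± 7.34 (SD, n = 6) and 76.4 ± 11.1 (n = 5). The interaction, -0.43 ± 0.1499 (SE), had an unadjusted p of 0.00861 and was not called (adjusted p = 0.243).

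Snrpn was between 7.85 and 11.4 in KD (median 9.22) and between 5.11 and 7.69 in NC (median 6.66) at 24 h. The groups were apart by a small gap, with a log2 fold change of 0.52 ± 0.155 (SE, adjusted p = 0.026). At 72 h it was 0.24 ± 0.156 (adjusted p = 0.299), with KD between 7.34 and 9.39 and NC at 5.38, 6.92, 8.15, 8.49 and 8.90. Snrpn shares exons with Snurf and Gm38393 on its own strand, and these cannot be told apart in its values.

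U2AF had the largest median log2 fold change of the families, 0.84 at 24 h and 0.90 at 72 h, with 2 of 3 members called at each time. Both were higher (66.7%, against 11.1% and 10.3% of all entries). With 3 members the median is the value of 1 gene, U2af1 at 24 h and U2af2 at 72 h. The third, U2af1l4, had a negative value at both times. U2af1, the small subunit that reads the AG at the end of the intron, was between 4.93 and 19.2 in KD (median 9.16) and between 3.66 and 7.34 in NC (median 5.18) at 24 h, and between 4.21 and 11.2 in KD (median 7.62) against 1.26, 3.57, 3.63, 3.91 and 5.00 in NC at 72 h. The groups overlapped at both times, and U2af1 averaged only 23.6 reads a library. The log2 fold changes were 0.84 ± 0.289 (SE, adjusted p = 0.0477) and 1.21 ± 0.324 (adjusted p = 0.016); without KD 24 h library 6 the value at 24 h was 0.63 (adjusted p = 0.0696).

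U2af2, the large subunit that binds the polypyrimidine tract, was between 7.32 and 16.5 in KD (median 9.0004) and between 3.21 and 7.40 in NC (median 4.80) at 24 h. Only the highest NC sample reached the KD range, and the log2 fold change was 1.03 ± 0.233 (SE, adjusted p = 0.00691). At 72 h KD was between 4.89 and 9.53 (median 6.57) and NC at 1.91, 2.98, 3.10, 5.17 and 5.63, with a log2 fold change of 0.90 ± 0.276 (adjusted p = 0.0308). The related gene U2af1l4 had log2 fold changes of -0.67 ± 0.282 (adjusted p = 0.097) and -0.25 ± 0.118 (adjusted p = 0.144); without KD 24 h library 6 it was called lower at 24 h. It shares 346 of its last 500 exon bases with Gm49396 on the same strand.

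Across the families, 5 members were called at both times (Sf3b1, U2af1, U2af2, Hnrnpdl1 and Hnrnpm), all higher, 14 at 24 h alone and 6 at 72 h alone. The matching shares over all entries were not computed, so whether these counts are particular to the members was not tested. The log2 fold change was larger at 24 h than at 72 h for 38 of 52 members, among them all 10 SR genes, 16 of 19 hnRNP genes and 3 of 8 SF3 genes. The interaction of knockdown and time was called for none of the 52 members (8 with an unadjusted p below 0.05; none with voom on the recovered reads), where 0.2% of all entries were called. A call at 1 time and not at the other therefore does not show that the effects differ. In NC cells alone, none of the 52 members was called between 24 h and 72 h (8 with an unadjusted p below 0.05; none with voom), where 9.12% of all entries were called.

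Several further calls were lost when any 1 of several libraries was left out. The share of all entries called, 22.7% at 24 h, then ran from 17.1 to 26.7%. Without an NC 24 h library it was 17.2 to 18.7%. At 72 h this share, 22.3%, ran from 18.3 to 22.6%. At 24 h the call was lost for Srsf1 when KD library 1 or NC library 1, 2 or 4 was left out, for Hnrnpdl1 without KD library 5 or NC library 2, 3 or 4, for Hnrnpm without KD library 1 or NC library 1, and for Snrpn without KD library 2 or NC library 1, 2 or 3. For U2af1 at 24 h it held only when KD library 3 or 5 or NC library 2 was the one left out. At 72 h it was lost for Sf3a3 without KD library 1, 4 or 5 or NC library 1, 5 or 6, and for U2af2 without KD library 1, 5 or 6 or NC library 1 or 6. Hnrnpa2b1, Hnrnpr, Hnrnpul2, Srsf11, Snrpa1, Snrpb2 and U2af2 at 24 h, and Hnrnpab, Hnrnpdl1, Hnrnpm, Sf3a1, Sf3b4 and U2af1 at 72 h, were called without each library in turn. When NC 72 h library 2 or 3 was left out, the other of this pair still stood for their shared sample. That sample was therefore never left out, and the calls at 72 h were not tested without it.

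Within the smaller cluster, with 2 libraries a group, Hnrnpa2b1 was the only one of the described members called at 24 h to be called again. Of all entries only 2.95% were called there at 24 h. The log2 fold changes at 24 h there were 0.15 for Srsf6, 0.20 for Srsf1, 0.34 for Srsf11, 0.24 for Hnrnpdl1, 0.46 for Hnrnpul2, 0.21 for Sf3b1, 0.24 for Snrpb2, 0.29 for Snrpn, 0.33 for U2af1 and 0.48 for U2af2. At 72 h Sf3b4 and U2af1 were called in it, and the values for Hnrnpdl1 and Sf3a1 were 0.29 and 0.40.

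Hnrnpl, an abundant hnRNP that binds CA-rich RNA, is named after its values were seen because its direction at 72 h differed between the clusters. KD libraries 5 and 6, those of the smaller cluster, were at 75.8 and 74.2 scaled RPKM, the other 4 KD libraries between 226 and 332, and the NC samples between 133 and 180. The log2 fold change was 0.72 ± 0.121 (SE, adjusted p = 0.00156) in the larger cluster and -1.02 ± 0.161 (adjusted p = 0.0046) in the smaller, and over all libraries 0.14 ± 0.367 (adjusted p = 0.819). The interaction of knockdown and time was called for Hnrnpl in the smaller cluster (-1.23 ± 0.203, adjusted p = 0.00758) and also for Hnrnpa0. Of all entries 3.11% were called for the interaction there. Hnrnpa0, Hnrnpa1 and Snrpf were called lower in that cluster at 72 h too (-0.89, -1.54 and -1.12). The clusters were formed from the same expression values, so p-values within a cluster only describe the split. The difference between the clusters was not tested.

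**Figure D4:**
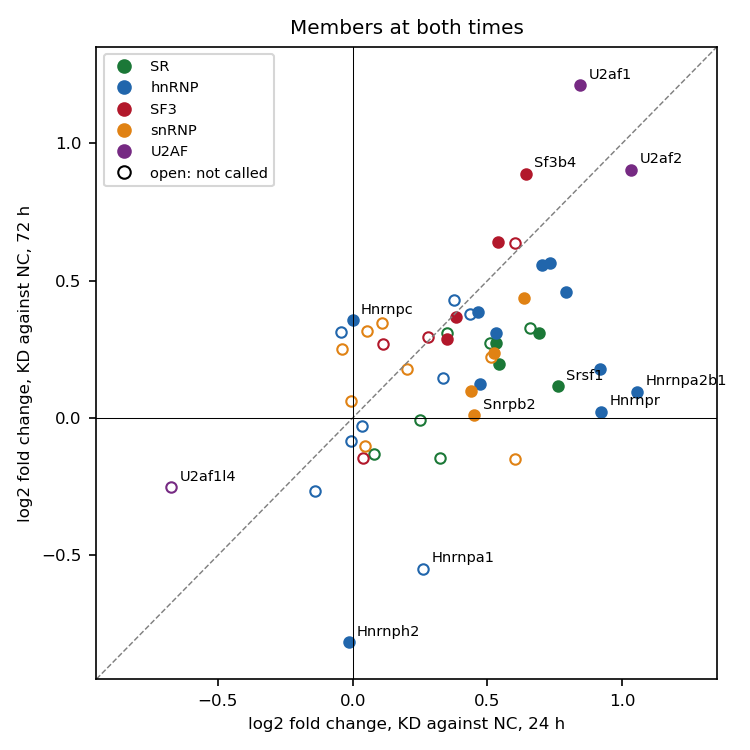
Log2 fold change of KD against NC at 72 h against that at 24 h for the 52 members tested, coloured by family; filled points were called at either time and the dashed line marks equal values. Hnrnpa2b1 (1.06 and 0.10) and Hnrnpr (0.92 and 0.02) lie far below the line, and U2af1 (0.84 and 1.21) lies above it.

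Promoter sequences from RefSeq (GRCm38.p6) were found for 47 of the 54 members. The windows of 4 members that rose are shown, for a gene called at 24 h in each of the hnRNP and SR families and for U2af1 and Hnrnpm, called at both times. The 250 bases before a start site are given 5′ to 3′, with matches to 7 short motifs in capitals, on either strand. Hnrnpa2b1, Srsf11 and U2af1 had 2 windows each, and the first listed is shown. Their start sites lie inside the genes, which begin at 51470048, 158036667 and 31659148 on the minus strand. The windows of Hnrnpa2b1 and Srsf11 thus lie partly within the gene, and that of U2af1 wholly. ETS factors are known to bind CCGGAAG and the factor NF-Y is known to bind CCAAT. The letters TGACG are part of the cAMP response element, and TATAAA is the usual form of the TATA box. An E-box common in promoters reads CACGTG, the factor YY1 is known to bind at AAGATGG, and the stretch AGGGGGC lies within the motif of CTCF. These 7 were kept from 14 motifs looked at, and the 4 genes were picked, with the counts of matches in view.
Hnrnpa2b1, chr6:51469895-51470144, minus strand: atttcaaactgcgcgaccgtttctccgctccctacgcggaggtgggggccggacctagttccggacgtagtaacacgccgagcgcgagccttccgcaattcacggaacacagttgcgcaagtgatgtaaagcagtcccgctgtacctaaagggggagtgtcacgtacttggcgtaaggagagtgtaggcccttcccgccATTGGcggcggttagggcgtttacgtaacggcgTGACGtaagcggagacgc
Srsf11, chr3:158036607-158036856, minus strand: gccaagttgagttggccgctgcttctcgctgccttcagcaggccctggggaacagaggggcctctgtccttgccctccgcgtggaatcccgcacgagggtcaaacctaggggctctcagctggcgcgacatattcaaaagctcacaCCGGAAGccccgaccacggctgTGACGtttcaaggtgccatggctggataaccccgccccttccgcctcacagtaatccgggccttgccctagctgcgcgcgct
Hnrnpm, chr17:33685459-33685708, minus strand: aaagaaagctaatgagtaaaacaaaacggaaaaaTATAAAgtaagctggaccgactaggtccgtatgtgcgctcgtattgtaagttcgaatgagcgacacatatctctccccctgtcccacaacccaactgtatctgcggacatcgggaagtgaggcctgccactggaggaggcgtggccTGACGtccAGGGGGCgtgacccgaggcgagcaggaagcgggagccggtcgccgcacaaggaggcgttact
U2af1, chr17:31658765-31659014, minus strand: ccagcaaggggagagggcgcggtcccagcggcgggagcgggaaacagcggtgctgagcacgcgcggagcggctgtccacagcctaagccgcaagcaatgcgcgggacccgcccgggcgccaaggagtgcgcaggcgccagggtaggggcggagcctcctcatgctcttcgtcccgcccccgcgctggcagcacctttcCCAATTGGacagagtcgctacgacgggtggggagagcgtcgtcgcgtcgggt

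In the windows shown, Hnrnpa2b1 held a CCAAT box whose first base was 51 before the start site of the window, and a TGACG at 18. U2af1 held a CCAAT in each orientation, overlapping, at 52 and 49 before that of its window. Over the 47 members, CCGGAAG stood in 14 (29.8%), against 7.83% of 27025 genes with a promoter sequence and 17.4% of the 7145 of these that passed the filter at 24 h. TGACG stood in 21 members (44.7%; 32.2% of the genes that passed) and CCAAT in 23 (48.9%; 41.2%). AGGGGGC stood in 8 (17.0%; 17.2%), TATAAA in 6 (12.8%; 7.80%), CACGTG in 4 (8.51%; 10.3%) and AAGATGG in 1 (2.13%; 5.44%). Among the 22 members with a promoter sequence that were called at either time, 6 held CCGGAAG, 9 TGACG and 9 CCAAT. Overlapping matches were each counted, and where a gene had several windows a match in any counted. The matches describe the letters of the windows only.

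The table also lists other transcripts of the same genes, which share most reads with the members in libraries that sequence the 3′ end. Of their Ensembl entries annotated as targets of nonsense-mediated decay, 6 of 17 tested were called at 24 h, all higher, and 3 of 20 at 72 h, all higher. Of the entries annotated with a retained intron, 7 of 28 were called higher at 24 h and 3 of 28 at 72 h, and of those annotated as protein coding 17 of 45 were called higher at 24 h, with 11 higher and 2 lower of 48 at 72 h. None of the retained-intron or decay entries was called lower. Over all entries 11.1% were called higher at 24 h and 10.3% at 72 h, so the counts of decay and retained-intron entries at 72 h were near the share of the whole table.

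Splicing genes outside the symbol pattern were called in both directions, and several lists were near the share of the whole table, where the calls made up 11.1% (higher) and 11.6% (lower) at 24 h and 10.3% and 12% at 72 h. At 24 h, 9 of 24 proteins of the Prp19 complex and the catalytic steps rose and 2 fell, led by Cwc27, a cyclophilin of the spliceosome, which fell by 1.78 (adjusted p = 0.000603). Of 27 other snRNP proteins 4 rose and 3 fell, led by Sart3, a recycling factor of the U6 snRNP, which fell by 1.43 (adjusted p = 0.00303). Of 39 other RNA-binding regulators 8 rose and 3 fell, led by Qk, the quaking protein, which fell by 1.296 (adjusted p = 0.0135). Of 14 helicases 3 rose and none fell, led by Dhx9, which rose by 1.18 (adjusted p = 0.00483). Of 17 SR kinases and SR-related proteins 4 rose and 2 fell, led by Srpk1, a kinase of SR proteins, which fell by 1.00 (adjusted p = 0.0056). Of 6 exon junction complex genes 2 rose and none fell, led by Magohb, which rose by 0.53 (adjusted p = 0.0301).

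At 72 h, 5 of 24 genes of the Prp19 complex and catalytic steps rose and 2 fell, again led by Cwc27, which fell by 1.41 (adjusted p = 6.4e-05). Of the 27 other snRNP proteins 5 rose and 1 fell, led by Snrnp48 of the minor spliceosome, which rose by 1.44 (adjusted p = 0.00186). Of 40 other regulators 5 rose and 4 fell, led by Tial1, which fell by 0.98 (adjusted p = 0.00339). Of the helicases 2 of 14 rose, led by Ddx42 with 0.60 (adjusted p = 0.0488), and none fell. Of the SR kinases and SR-related genes 1 of 17 rose and Srpk1 fell by 0.64 (adjusted p = 0.014). No exon junction complex gene was called. The list medians at 24 h and 72 h were 0.33 and 0.28 for the Prp19 complex and step factors, 0.08 and 0.30 for the other snRNP proteins, 0.15 and 0.05 for the other regulators, 0.38 and 0.21 for the helicases, 0.13 and 0.04 for the SR kinases and SR-related genes, and 0.24 and 0.23 for the exon junction complex.

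Markers of cell state moved in the same libraries. Of 5 brite adipocyte markers 4 fell at 24 h and 5 at 72 h, with summed RPKM of 302 to 479 in KD and 425 to 854 in NC at 24 h, and of 425 to 847 in KD and 1212 to 1978 in NC at 72 h. Of 8 general adipocyte markers 4 fell at each time. Of 5 markers of dividing cells none was called at either time (summed RPKM 68.2 to 113 in KD and 76.8 to 106 in NC at 24 h, 62.6 to 95.5 and 44.7 to 125 at 72 h). Of 6 preadipocyte or fibroblast markers tested at 24 h none was called, and of 5 at 72 h 1 rose. Of 4 mural markers none was called at 24 h and 1 rose at 72 h. The mural list summed to 162 to 605 RPKM in KD and 358 to 1057 in NC at 24 h. At 72 h it was at 220 to 341 and 228 to 740. Of 2 macrophage markers tested, 1 rose at 24 h, and 1 rose and 1 fell at 72 h. The endothelial list had no gene tested, and of the epithelial list Krt19 alone was tested. It rose by 1.06 at 24 h (adjusted p = 0.00916) and by 2.54 at 72 h (adjusted p = 5.7e-07). Epithelial markers summed to 22.9 to 75.7 RPKM in KD and 17.9 to 25.2 in NC at 24 h, and to 119 to 171 and 17.8 to 26.6 at 72 h, nearly all of it Krt19, with Epcam listed at 0 in every group but KD at 24 h, where it reached 0.1. Macrophage markers summed to 2.74 to 17.0 in KD and 4.52 to 25.7 in NC at 24 h, and to 6.93 to 11.5 and 7.27 to 28.3 at 72 h. In bulk RNA fewer cells of a type and less RNA per cell cannot be told apart, and the part of these changes in the splicing factor levels was not tested.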

How the data were processed

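RNA of 24 samples was measured by BRB-seq, a barcoded method that sequences the 3′ end. The authors aligned reads to the NCBI Reference Sequence Database in the Genomatix suite and deposited RPKM values for 168326 RefSeq, Ensembl and GenBank entries; the build, the filters and the use of strand are not given in the sources used here. The smallest step of RPKM gave each library's read total. Of the low values of Ensembl entries used to find it, 94.8 to 95.7% came out as whole reads (tolerance 0.05). The total was chosen by this share, so the share is no separate check of it. Read numbers of NC 72 h library 6 were mostly even, and its reads and total were halved for voom.

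RPKM were scaled by trimmed means (30% and 5% trims) at each time apart. Entries with 10 reads in a median library in as many samples as the smaller group, and 15 reads in total (length 2000 bases assumed where unknown), were tested on log2(RPKM + 0.1) with limma 3.58.1 in R 4.3.3 (moderated variance with trend, Benjamini-Hochberg over all entries, two-sided, no block). A fold change on this scale understates the change of low genes. The model was tested on simulated data; its bar for calls at the smaller simulated folds was lowered after a first run missed it.

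Described with values were the 3 called members of largest fold in each direction and time for SR, hnRNP and snRNP, every called SF3 and U2AF member, and Srsf2. Members, gene lists and tests were chosen with earlier results of these data known. Alternatives covered scaling, filter, pseudocount, entries, voom, clusters, blocks and left-out libraries; leaving out members with shared 3′ ends was added after seeing the data.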

Additional observations from a re-analysis of the deposited data

Results flagged for a closer look

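Of 80 groups of samples examined for the 20 members described, 11 held a library whose gap to its nearest neighbour was large for the range of its group (Dixon's test at 95%); chance flags about 1 in 20 groups. KD 24 h library 6, the shallowest, was the highest of its group for Hnrnpa2b1 at 369.8 scaled RPKM (next 233.5), Hnrnpr at 21.2 (10.1), Srsf1 at 19.2 (11.3), Srsf11 at 32.9 (23.7) and U2af2 at 16.5 (10.4), and the lowest for Sf3a3 at 19.0 (30.7). KD 72 h library 6 was the lowest for Snrpn at 7.34 (8.68) and for Srsf1 at 3.79 (5.67). NC 72 h library 6, whose read numbers were mostly even, was the lowest for Hnrnpa2b1 at 75.3 (96.8). NC 24 h library 1 was the highest for Hnrnph2 at 10.1 (8.06), and NC 24 h library 4 the lowest for Srsf6 at 11.0 (12.5). The part of depth in these values was not tested.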

How the results depend on the processing

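The number of members called at 24 h, 19, fell to 10 with no filter on low values and to 2 in the smaller cluster alone. The share of all entries called fell as well, from 22.7% to 7.05% and 2.95%. In the smaller cluster the median log2 fold change was 0.14. As single libraries were left out, the number ran from 12 to 22 (median 0.34 to 0.45). The share of all entries called ran from 17.1 to 26.7%. The number at 72 h, 11, was 30 on deposited RPKM (median 0.51), 7 with no filter, 18 in the larger cluster and 6 in the smaller (median 0.0908). Without single libraries it was 7 to 11 (median 0.22 to 0.29). Of all entries 22.3% were called at 72 h, and 29.9%, 7.91%, 24.6% and 10.3% under those 4 settings. Without single libraries this share ran from 18.3 to 22.6%. No member's interaction was called, against 1 on deposited RPKM, 2 in the smaller cluster and 0 to 1 without single libraries. Of all entries 0.2% were called for the interaction, and 1.3% on deposited RPKM and 3.11% in the smaller cluster. Without KD 24 h library 6, where 1 member was called, it was 0.297% of all entries. No member was called between the NC times, where 9.12% of all entries were called. The number between the NC times was 2 with RefSeq mRNA entries only (10.9% of all entries) and 1 with 1 entry per gene (10.8%). It was 2 with the noise-agreeing libraries counted separately (12.5%), 2 in the larger cluster (10.2%) and 0 to 1 without single libraries. With members that share 3′ ends left out, 17 were called at 24 h and 10 at 72 h. The cause of these changes was not tested.

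With the replicate number as a block, 14 members were called at 24 h and 6 at 72 h, 12 and 5 of them among those called without it. Of all entries 16.8% and 15.1% were called with the block. Same-numbered KD and NC libraries did not deviate together (mean correlation -0.08 at 24 h and 0.04 at 72 h), so the numbers were not taken as pairing. Hnrnpr at 72 h turned to -0.0294 under the block.

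Among the members described with values, the direction of some uncalled values, and of Srsf2, turned. Hnrnpl, described for its clusters, went from 0.14 at 72 h to -1.02 in the smaller. At 24 h in the smaller cluster Hnrnpab was at -0.00494, Sf3a1 at -0.16, Srsf2 at -0.0369 and Hnrnph2 at 0.12; Hnrnph2 was 0.0408 on deposited RPKM and -0.11 to 0.11 without single libraries. At 72 h in the smaller cluster Hnrnpr was at -0.33, Snrpb2 at -0.19, Srsf1 at -0.22 and Srsf11 at -0.071. Hnrnpr was -0.00911 with voom, and Snrpb2 -0.0023 with voom and -0.00167 with 1 entry per gene. Without single libraries, Hnrnpr ran from -0.0775 to 0.14 and Snrpb2 ran from -0.05003 to 0.0866 at 72 h.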
